A study of Danio rerio with 6 samples.

Results

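The genes described here are the nuclear genes for the respiratory chain and ATP synthase of the mitochondrion. They were taken by name from the gene rows of single-cell count tables of the zebrafish pituitary: every row whose name starts with nduf, uqcr or atp5, or with cox followed by a number from 4 to 8. The rule found 89 of 31325 rows, here called the members. By name, 40 rows were complex I subunits and 6 were complex I assembly factors. Complex III had 8 rows, complex IV 18 and ATP synthase 17. A RefSeq symbol was found for 88 of the 89, and the names below are those of the tables, several of which are older symbols (atp5g1 is now atp5mc1, atp5b is atp5f1b, cox7a3 is cox7a2l and ndufa4l is ndufa4a).

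The respiratory chain passes electrons from complex I through complex III to complex IV and pumps protons across the inner mitochondrial membrane, and ATP synthase uses the proton gradient to make ATP. Complexes I, III and IV and ATP synthase are built from subunits of 2 genomes. Mitochondrial DNA encodes core subunits of each, read here as 13 rows named mt-, while the members are transcribed in the nucleus, translated in the cytosol and imported. Several complex IV subunits exist as paralogous pairs that mammals use in different tissues or oxygen conditions.

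The cells came from Tg(pomca:EGFP) fish of the AB strain, in which the pomca promoter drives EGFP, and carry the label of neurohypophysis enrichment (this is the pituitary's neural lobe). A fluorescent dipeptide, β-Ala-Lys-Nε-AMCA at 4.6 mM, had been injected into all fish: 5 µl in juveniles at 37 days post-fertilization (dpf) and 10 µl in males at 5 and 7 months. At each of the 3 ages, 5 pituitaries were pooled, dissociated and sorted into 2 plates of 384 wells, and the RNA of each well was counted as unique molecular identifiers (UMIs) by MARS-seq. The plates of an age therefore share 1 pool of fish, and SDs and p-values measure the spread between plates, which may be technical. Sequencing batch follows age: the 4 adult plates were in 1 batch, 1 plate of 37 dpf was in another and the batch of the other was not listed, so that in comparisons with 37 dpf batch cannot be told apart from age, while 7 against 5 months lies within a batch.

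Wells with at least 400 UMIs were used: 311 and 339 on the juvenile plates, 257 and 174 on those of 5 months, and 203 and 106 on those of 7 months. They held 990934 and 1166584, 439266 and 261477, and 204347 and 81949 UMIs. Rows named AC024175, which no source used here annotates, took 11.4% and 15.5% of UMIs on the juvenile plates in wells under 10% globin, and between 25.3% and 33.5% on the adult plates, so shares are also given without them. Wells were sorted into classes by marker genes that include no member. Adult pituicyte wells (the glia of the neurohypophysis) had cyp26b1 in 64 of 68 wells at 5 months and 86 of 89 at 7 months, whereas wells that met the same list at 37 dpf had it in 12 of 56, so these are called pituicyte-list wells. Gonadotropin-rich wells were led by lhb, cga and fshb and numbered 40 at 5 months. Most 37 dpf UMIs lay in wells of other tissues or of no class: erythroid wells led by hbaa1, keratinocyte-list wells led by krt5, stromal wells led by col10a1a and col1a1a, and 224 unassigned wells. The summed counts of the unassigned wells were led by the muscle genes pvalb2, pvalb1 and actc1b. This does not make the class muscle: only 3 wells at 37 dpf had at least 10% of UMIs from a list of 12 muscle genes. On the first and second plate, 49 and 56 of the unassigned wells held 1 to 10% globin. The 6 wnk1b-positive wells at 37 dpf were led by the myelin genes mpz and plp1b and are not compared.

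The members together held 51720 UMIs. ATP synthase rows held 42.95% of these, complex IV rows 25.85%, complex I rows 22.36%, complex III rows 8.293% and the assembly factors 0.5414%. The most abundant rows were atp5g3b, a gene for the c subunit that forms the rotor ring of ATP synthase, with 2781 UMIs, and atp5b, the catalytic β subunit, with 2774. In complex IV the leading row was cox4i1, the common form of a regulatory subunit, with 1968 UMIs. In complex III it was uqcrh, the hinge protein, with 909. In complex I it was ndufa4l, with 979, although mammalian NDUFA4 has been reassigned to complex IV. The median row held 332 UMIs, 11 rows held fewer than 50 and 3 (ndufa4l2b, ndufa9b and ndufs8b) held none. UMI counts are per molecule end and not per length. Below, levels of different genes are compared only as shares of UMIs and as ratios to the mt- UMIs. Among rows of at least 100 UMIs, no well held more than 6.154% of a row's UMIs.

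The summed share of the members was higher at 37 dpf than in adults on every plate. In wells under 10% globin, the members made up 2.162% and 1.952% of UMIs on the juvenile plates. At 5 months they made up 0.7804% and 0.724%, and at 7 months 0.69% and 0.6846%. The means in order of age were 2.057 ± 0.1485%, 0.7522 ± 0.03988% and 0.6873 ± 0.003818% (SD, n = 2 plates each). Both 37 dpf plates lay above all 4 adult plates, and the 2 adult ages did not overlap but lay close together. Counted against UMIs without the AC024175, mt-, globin and gonadotropin rows, the means were 2.575%, 1.233% and 0.9855%. With wells of at least 1% globin also left out, the 37 dpf mean was 1.729 ± 0.1039% (SD, n = 2 plates). The mean of the per-well shares was 1.597% at 37 dpf, 0.5646% at 5 months and 0.6615% at 7 months, in which 7 months stood above 5 months. A permutation of 2 plates against 2 cannot reach 0.05, so no test of the sum is reported. Sums over a plate also do not separate fewer wells of a type from less RNA per well.

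The composition of the member UMIs differed with age too. Complex I rows held 21.31% and 21.61% of member UMIs on the 37 dpf plates, 27.33% and 27.89% at 5 months, then 27.45% and 28.7% at 7 months. ATP synthase rows held 43.36% and 43.91%, then 38.83% and 37.3%, then 36.1% and 38.15%. The 37 dpf plates did not overlap the adult plates in either measure. By class, the ATP synthase share was 44.84% and 35.94% in pituicyte-list wells at 37 dpf, and 36.4% to 40.32% in adult pituicyte wells, which overlap. In macrophage wells 44.09% and 38.54% overlapped the 39.79% and 35.6% of 5 months. In stromal wells 41.26% and 44.01% lay above the adult 30.73% to 38.46%. The complex I shares did not overlap between 37 dpf and adults in pituicyte or stromal wells, or between 37 dpf and 5 months in macrophage wells. The 7-month macrophage sums, of 8 and 4 wells, had 22.02% and 17.95%, inside the 37 dpf range of 17.26% to 22.6%. Complex IV rows held between 24.96% and 26.39% on every plate, with no separation of the ages. In wells under 1% globin at 37 dpf, the complex I share was 21.63 ± 0.07071% and the ATP synthase share 43 ± 0.3111% (SD, n = 2 plates).

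Gene by gene, most members were lower in adults. The edgeR quasi-likelihood test on plate sums, with Benjamini-Hochberg adjustment over 4416 genes at 0.05, tested 77 members. At 5 months against 37 dpf it called 59 lower and 0 higher, where 24.9% of all genes tested were called lower. At 7 months against 37 dpf it called 57 lower, where 24.5% of all genes were, and 1 higher, where 21.7% were. The median log2 fold change of the members was -1.16 at 5 months and -1.52 at 7 months, against -0.06 and -0.15 over all genes tested. These comparisons share their controls: both use the same 37 dpf plates. With wells of at least 1% globin left out, an alternative chosen after the data were seen, 28 of 75 members were lower at 5 months, where 13.9% of all genes were, and 39 were lower and 1 higher at 7 months, where 15.4% of all genes were lower and 15.6% higher. The medians in that fit were -0.87 and -1.18. Leaving out 1 plate gave between 27 and 64 calls at 5 months and between 48 and 61 at 7 months, and at 5 months the count was 35 without the first 37 dpf plate, 31 without the first 5-month plate and 27 without the second. In wells under 10% globin the globin rows held 1.972% and 2.332% of UMIs at 37 dpf, and keratinocyte-list UMIs were 1.477% and 1.209% at 37 dpf and 0.1869% to 0.4732% in adults. The part of this difference in cell types in the gene results was not tested beyond the values given by class below.

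In ATP synthase, 15 of 16 tested rows were lower at 5 months and 16 of 16 at 7 months. The rotor gene atp5g3b had 1257 and 1157 CPM (counts scaled to a common library total, with TMM) on the 37 dpf plates, 268 and 352 at 5 months, then 185 and 219 at 7 months. All adult plates were below both 37 dpf plates, and the log2 fold changes were -1.97 ± 0.27 (SE, edgeR adjusted p = 5.236e-05) and -2.60 ± 0.30 (adjusted p = 1.293e-05). The second c-subunit gene, atp5g1, had 641 and 693 CPM at 37 dpf, 188 and 238 at 5 months, then 108 and 122 at 7 months. For atp5b the values were 1161 and 1112, then 431 and 381, then 273 and 378 CPM, with log2 fold changes of -1.48 ± 0.27 and -1.84 ± 0.29. For atp5h, a peripheral stalk subunit, they were 582 and 467, then 157 and 153, then 72.1 and 73.1 CPM, and the change at 7 months was -2.85 ± 0.35 (edgeR adjusted p = 2.144e-05). The ages did not overlap between 37 dpf and adults for any of these genes. The row not called at 5 months, atp5ib (subunit e), had a log2 fold change of -0.87 ± 0.35 (edgeR adjusted p = 0.05266).

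In complex IV, 15 of 17 tested rows were lower at 5 months, and at 7 months 15 were lower and cox4i2 was higher. The common subunit 4 gene cox4i1 had 885 and 703 CPM at 37 dpf, 428 and 436 at 5 months, then 335 and 268 at 7 months, log2 fold changes of -0.88 ± 0.27 and -1.37 ± 0.29. Its paralogue cox4i2, in mammals the form induced by low oxygen, ran the other way, with 42.1 and 32.1, then 54.2 and 74.3, then 227 and 183 CPM. Both 7-month plates lay above the other 4 plates. The log2 fold change of cox4i2 was 0.75 ± 0.38 at 5 months (edgeR adjusted p = 0.1128), 2.49 ± 0.36 at 7 months (adjusted p = 7.897e-05) and 1.74 ± 0.38 for 7 against 5 months.

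Some complex IV rows with few UMIs in adults had larger fold changes, whose size these counts measure poorly. On the adult plates cox6b1 had 2, 1, 1 and 1 UMIs and cox6a2 had 2, 3, 5 and 0. The counts were 3, 2, 2 and 0 for cox7a1 and 2, 1, 1 and 1 for cox5b2. For cox6b1 the plates had 115 and 92.1 CPM at 37 dpf and 5.16, 4.95, 5.15 and 12.2 in adults, a log2 fold change of -4.27 ± 0.59 at 5 months. For cox6a2, in mammals the heart and skeletal muscle form of subunit 6a, they were 106 and 90 CPM, then 5.16 and 14.9, then 25.7 and 0, and the change at 5 months was -3.46 ± 0.62. For cox7a1, the corresponding muscle form of subunit 7a, they were 48.1 and 51.7, then 7.74 and 9.9, then 10.3 and 0 CPM. Low counts limit these rows: cox7a1 lost its call in both comparisons without wells of at least 1% globin, and cox6a2 lost it at 7 months, where its log2 fold change was then -1.26. The partner form cox6a1 had 703 and 614 CPM at 37 dpf, 206 and 163 at 5 months, then 160 and 305 at 7 months. The subunit 7a form cox7a2a had 255 and 244, then 51.6 and 119, then 15.4 and 36.6 CPM, and cox5b2 had 32.5 and 33.1, then 5.16 and 4.95, then 5.15 and 12.2.

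In complex III, 7 of 8 rows were lower at 5 months and 5 of 8 at 7 months. The hinge gene uqcrh had 359.7 and 392.2 CPM at 37 dpf, 119 and 178 at 5 months, then 82.4 and 73.1 at 7 months, with log2 fold changes of -1.37 ± 0.31 and -2.25 ± 0.37. The Rieske iron-sulfur protein gene uqcrfs1 was called lower at 5 months (-1.71 ± 0.34) but not at 7 months (-0.69 ± 0.34, edgeR adjusted p = 0.1121), and the difference between these was not called.

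In complex I, 22 of 35 tested rows were lower at 5 months and 21 of 35 at 7 months. The row ndufa4l had 389 and 380 CPM at 37 dpf, 206 and 248 at 5 months, then 180 and 158 at 7 months, a log2 fold change of -0.77 ± 0.28 and -1.16 ± 0.31. At 5 months the largest fall among called complex I rows was in ndufs4, an accessory subunit of the NADH-oxidizing arm, with 105 and 71.4 CPM at 37 dpf, 23.2 and 19.8 at 5 months, then 25.7 and 0 at 7 months. Several accessory subunit genes were not called at either adult age. For ndufa1 the plates had 198 and 175, then 126 and 188, then 108 and 122 CPM, and for ndufb3 they had 99.8 and 93.1, then 95.5 and 104, then 56.6 and 171. The ages overlapped for ndufb3, whose log2 fold changes were 0.04 ± 0.37 and 0.02 ± 0.44.

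**Figure D1:**
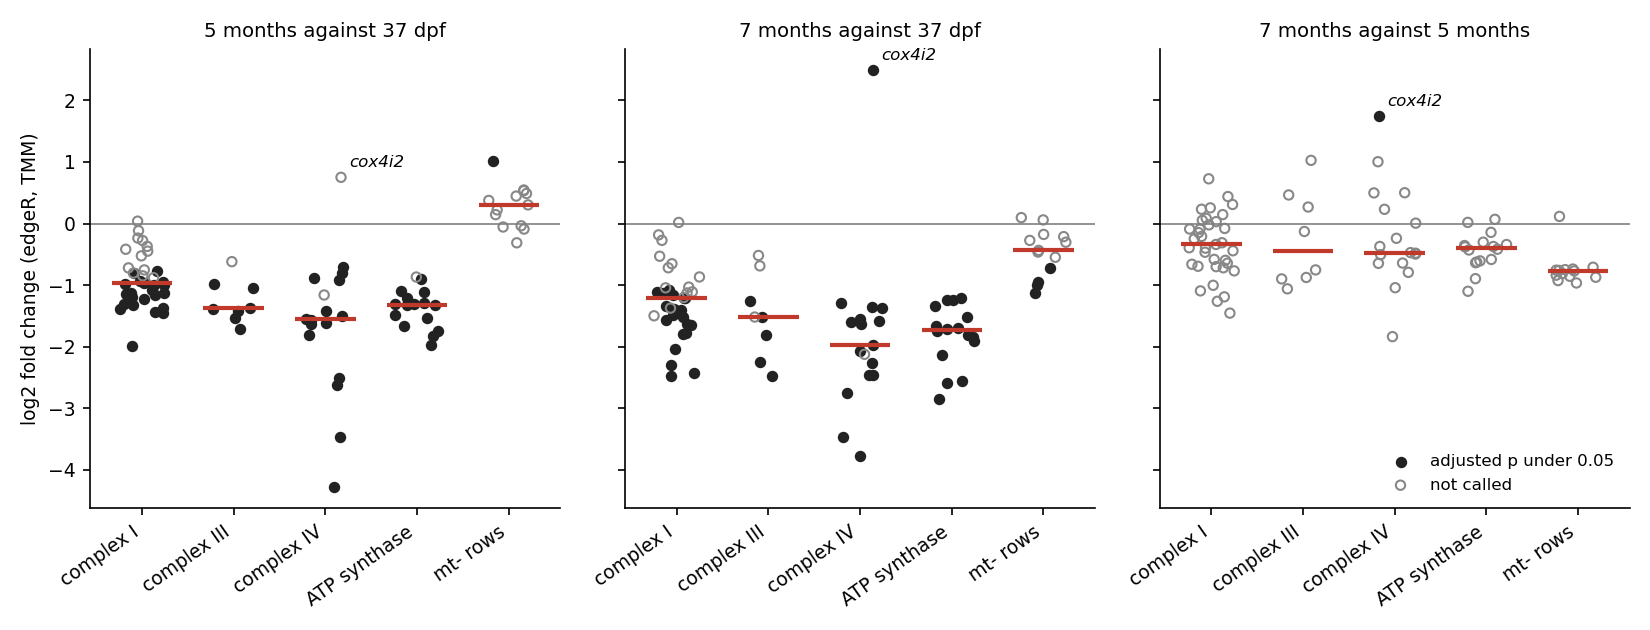
Log2 fold change (edgeR, TMM scaling, vertical axis) of each tested member by complex, and of the 13 mt- rows, for 3 comparisons between ages; each point is a gene, filled where the adjusted p is under 0.05, and red bars are medians. Members of every complex lie mostly below 0 at 5 and 7 months against 37 dpf except cox4i2, while mt- rows lie near or above 0 at 5 months, where their median is 0.30. The 1 tested assembly factor is not shown.

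Between 7 and 5 months, 1 of 77 members was called: cox4i2, higher at 7 months (edgeR adjusted p = 0.0257). This was 1.3% of the members tested, near the 1.13% of all genes tested that were called higher. A further 11 members had an unadjusted p under 0.05, for 12 in all. The share of all genes at that threshold is not given here, so this count stands without a baseline. The median member changed by -0.38 against -0.06 over all genes. Without TMM these medians were -0.15 and 0.13. The call of cox4i2 was lost without either 5-month plate and without the first 7-month plate, at log2 fold changes between 1.32 and 1.77 in these fits, and it was lost with no filter on low counts, at 1.56. The pituicyte list held 0.6363% and 0.662% of UMIs at the younger adult age and 1.194% and 1.356% at the older, and the gonadotropin list 3.94% and 3.171% and then 0.1649% and 0.5845%. Within pituicyte wells alone, cox4i2 had 242 and 146 CPM at 5 months, then 452 and 482 at 7 months. These plates did not overlap, but the log2 fold change of 1.23 ± 0.57 was not called by the edgeR fit across all genes (adjusted p = 0.4374).

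Other mitochondrial gene lists, taken up with earlier results of these data known, gave the following counts. Of 63 tested rows named mrpl or mrps, the mitochondrial ribosome, 44 were lower at 5 months than at 37 dpf and 0 higher, with a median log2 fold change of -1.52. Of 17 rows for the import complexes (timm and tomm), 13 were lower, median -1.27. Of 18 rows of the tricarboxylic acid cycle, 5 were lower, median -0.84, a share near the 24.9% of all genes called lower, and of 8 rows for complex II and cytochrome c 3 were lower, median -0.64. Glycolysis rows differed in direction: 9 of 14, among them ldha and eno1a, were higher, where 22.8% of all genes were, and 2 (gapdh and ldhba) lower, with a median of 1.00. At 7 months 3 of the 14 were higher and 1 was lower. The other lists had more rows lower at 7 months than the 24.5% of all genes called lower. Of the tricarboxylic acid cycle rows 10 of 18 were lower (median -1.40), and of those for complex II and cytochrome c 4 of 8 (median -1.56). For the mitochondrial ribosome it was 42 of 63 (median -1.90) and for the import complexes 9 of 17 (median -1.62). A list of immediate early and stress genes that respond to dissociation was higher in 12 of 13 rows at 5 months against 37 dpf. At 7 months it was higher in 11 of 13 rows, where 21.7% of all genes were called higher. The part of this list in the results above was not tested.

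The ages stood in another order for the mt- rows. In wells under 10% globin they held 4.808% and 4.35% of UMIs at 37 dpf, 4.486% and 5.171% at 5 months, then 3.209% and 3.461% at 7 months, so that 5 months overlapped 37 dpf and 7 months lay below both. There were 0.4492 ± 0.0006364 member UMIs per mt- UMI at 37 dpf, 0.157 ± 0.02404 at 5 months and 0.2064 ± 0.01216 at 7 months (SD, n = 2 plates). These plate values include unassigned wells, which at 5 months had mt- shares of 7.442% and 9.324% and ratios of 0.06463 and 0.04266. By class the mt- share was lower at 5 months than at 37 dpf. It was 3.694% and 3.531% against 4.647% and 4.385% in pituicyte and pituicyte-list wells. In macrophage wells it was 4.189% and 4.1% against 7.454% and 5.793%, and in stromal wells 3.471% and 3.837% against 4.214% and 3.863%. Of the 13 mt- rows, edgeR called mt-nd5, a complex I subunit, higher at 5 months than at 37 dpf (log2 fold change 1.02 ± 0.27, adjusted p = 0.007214) and none lower. At 7 months mt-atp6, mt-nd1, mt-nd2 and mt-nd3 were lower, 30.8% of the 13 rows, where 24.5% of all genes were. The log2 fold change of mt-atp6 was -1.12 ± 0.23 (edgeR adjusted p = 0.001378). The ATP synthase row mt-atp6 held 0.7383% and 0.6514% of UMIs at 37 dpf, 0.4446% and 0.5002% at 5 months, then 0.3117% and 0.3283% at 7 months. The complex IV row mt-co1 held 1.049% and 1.001%, then 1.147% and 1.372%, then 0.8353% and 0.942%. Within classes the mt- rows were lower too in places. In stromal wells 5 of 10 tested rows were lower at 7 months than at 37 dpf (median log2 fold change -0.90), where 13.2% of all genes were. At 5 months 0 were lower (median -0.18), where 10.9% of all genes were. In macrophage wells 2 of 10 were lower at 5 months (median -0.66), where 6.41% of all genes were called either way.

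By class, the member share was lower in adults in each of the 3 classes with at least 10 wells per plate at both stages. In stromal wells it was 1.065% and 1.062% at 37 dpf, against 0.6188%, 0.5552%, 0.5904% and 0.6433% in the 4 adult sums. In macrophage wells it was 1.381% and 1.107% at 37 dpf and 0.8307% and 0.7825% at 5 months. Pituicyte-list wells had 1.5% and 1.4% at 37 dpf, and adult pituicyte wells had 0.8656% and 0.9408% at 5 months, then 0.7914% and 0.8307% at 7 months. None of these groups overlapped between 37 dpf and adults, but the classes were not alike at both stages. The leading genes of stromal wells were the same only in part: col1a1a was among them at all ages, col10a1a only at 37 dpf. The 37 dpf pituicyte-list wells mostly lacked cyp26b1. The highest shares at 37 dpf lay outside these classes: 2.302% and 1.977% in erythroid wells, 2.766% and 2.335% in unassigned wells with 1 to 10% globin and 2.483% and 2.377% in unassigned wells under 1% globin.

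**Figure D2:**
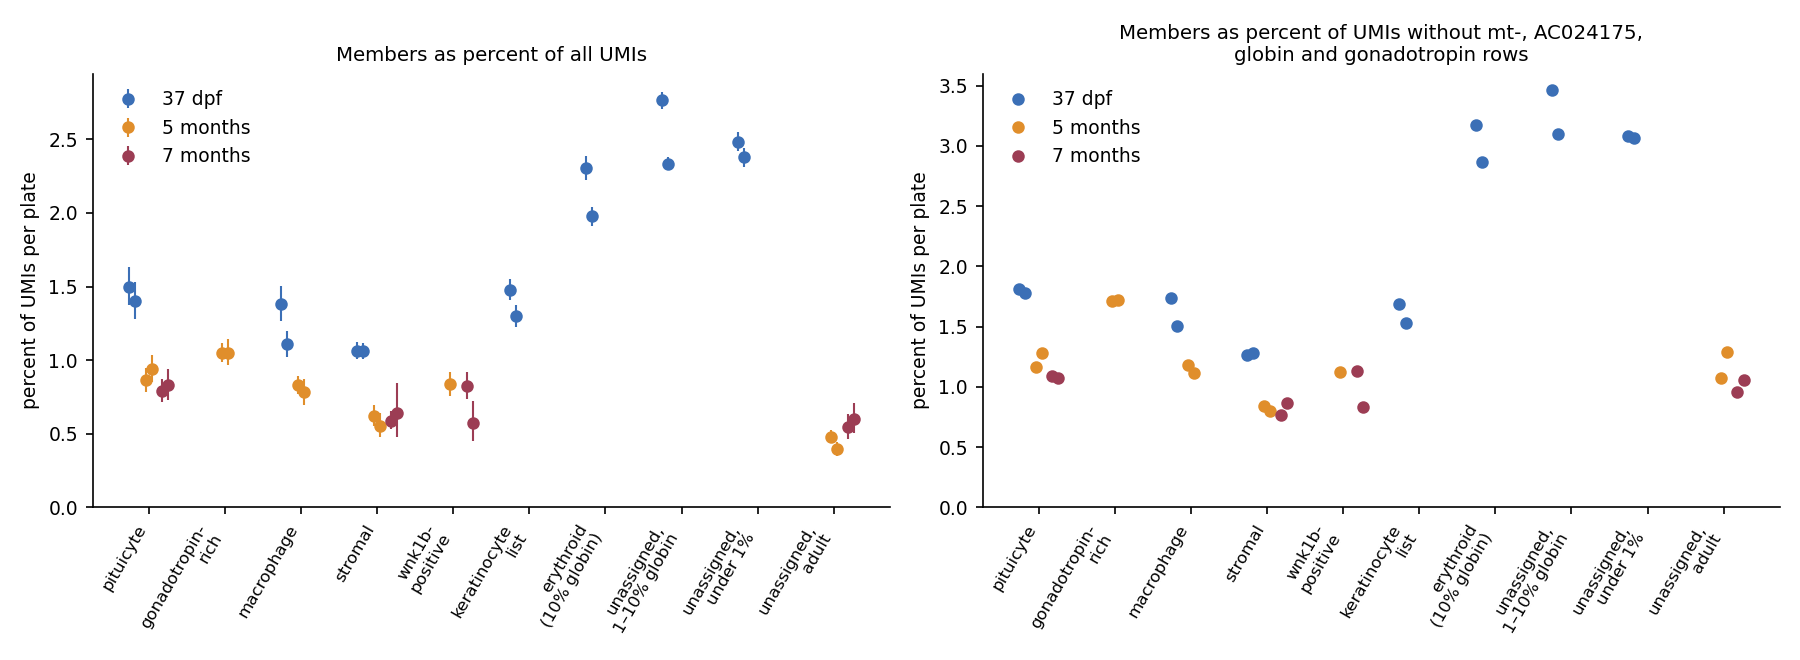
Summed member UMIs per well class and plate, as percent of all UMIs with 95% exact binomial intervals (left) and as percent of UMIs without mt-, AC024175, globin and gonadotropin rows (right); colours mark the age and each point is a plate. In pituicyte, macrophage and stromal wells the 37 dpf plates lie above the adult plates on both scales, and erythroid and unassigned 37 dpf wells lie highest.

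Within single classes few members could be called. In stromal wells 23 members were tested across the 3 ages. At 5 months against 37 dpf 2 were lower, where 10.9% of all genes were: atp5g1 (396 and 426 CPM at 37 dpf, 54 and 40.1 at 5 months, log2 fold change -3.03 ± 0.73, edgeR adjusted p = 0.00902) and atp5b (556 and 663, then 270 and 160 CPM, -1.45 ± 0.48, adjusted p = 0.04445). At 7 months atp5g1 alone was called (81.1 and 159 CPM, -2.12 ± 0.70), where 13.2% of all genes were called lower. DESeq2 called 0 members in either comparison. Without the first 37 dpf plate or either 5-month plate 0 members were called at 5 months. At 7 months the call of atp5g1 held without the first 5-month plate and was lost without each of the other 5 plates, and it was also lost with minimums of 200 or 1000 UMIs, no filter, stricter or looser classes and sums of at least 20 wells. The medians over the 23 members were -1.06 and -0.87, against -0.16 and -0.27 over all genes. In macrophage wells edgeR called 0 of 23 members at 5 months against 37 dpf, where 6.41% of all genes were called. The median there was -0.53 against 0.03, 3 members had an unadjusted p under 0.05, and DESeq2 called 0. The count of 3 stands without a baseline, as the share of all genes at the unadjusted threshold is not given.

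Between 7 and 5 months edgeR called 0 of 13 members in pituicyte wells, where 0.426% of all genes were called, and 1 had an unadjusted p under 0.05. In stromal wells it called 0 of 6, where 3.76% of all genes were called, and 0 had an unadjusted p under 0.05. The shares of all genes at the unadjusted threshold are not given here. DESeq2 called 0 in both classes. With no filter on low counts 80 and 81 members were tested and 0 called.

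Among the 5 named adult classes, gonadotropin-rich wells had the highest mean member share and stromal wells the lowest. The share was 1.051% and 1.052% in gonadotropin-rich wells on the 5-month plates, 0.8571 ± 0.06349% in pituicyte wells (SD, n = 4 plates), 0.8066 ± 0.03408% in macrophage wells (n = 2), 0.745 ± 0.1467% in wnk1b-positive wells, which are epithelial (n = 3), and 0.6019 ± 0.03792% in stromal wells (n = 4). Gonadotropin-rich plates lay above all others. Pituicyte, macrophage and wnk1b-positive plates overlapped one another, and the lowest wnk1b-positive plate, at 0.5757%, lay within the stromal range. Without the AC024175, mt-, globin and gonadotropin rows the means were 1.718%, 1.151%, 1.151%, 1.032% and 0.8175%, so that pituicyte and macrophage wells were level and the order was otherwise as before.

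Only 25 of the 89 members passed the filter in sums per plate and class. In gonadotropin-rich wells 16% of the 25 members were called against the mean of the other 4 classes, with plate as a block. This share lay near the 13.1% of all genes called higher. The members called were 4, all higher. These were the complex I accessory subunits ndufa3 (353 and 389 CPM, against 0 to 143 in every other sum, log2 fold change 2.56 ± 0.62, edgeR adjusted p = 0.0009219) and ndufa1 (368 and 518 CPM, against 0 to 271, 2.07 ± 0.51), the ATP synthase stalk subunit atp5j (412 and 544 CPM, 1.61 ± 0.45) and the complex IV subunit cox5aa (456 and 233 CPM, 1.53 ± 0.52, adjusted p = 0.02072). The second plate of cox5aa overlapped the macrophage sums of 270 and 211 CPM. Both ndufa3 and ndufa1 passed the filter on low counts mainly through the gonadotropin-rich sums. Their place among the 25, and with it the share of 16%, thus depends on the class in which they were called. With no filter on low counts the 4 were still called. These wells had a median of 3362 UMIs, and there were 0 calls without the first 5-month plate, 1 with stricter classes, and 7 both without the second 7-month plate and with the AC024175 and mt- rows left out. The class was measured only at 5 months.

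Stromal wells had 6 members lower, where 12.1% of all genes were called lower, and 1 higher, where 22.4% were. The lower ones were cox5aa, atp5g1, atp5j, atp5g3b, cox8a and atp5b. In the 4 stromal sums cox5aa had 24.6, 72.2, 0 and 0 CPM, against 95.6 to 456 elsewhere, a log2 fold change of -2.81 ± 0.72 (edgeR adjusted p = 0.001285). For atp5g1 the stromal sums had 49.2, 36.1, 79.3 and 135 CPM against 95.6 to 415 elsewhere, and the change was -1.76 ± 0.55 (adjusted p = 0.008798), with the highest stromal sum inside the range of the other classes. The other 4 changed by -0.97 to -1.71. In pituicyte wells 2 members were higher, where 25.2% of all genes were, cox4i2 and cox7b. For cox7b the pituicyte sums had 391.7, 428, 228 and 363 CPM against 95.6 to 259 elsewhere, a log2 fold change of 0.95 ± 0.37 (edgeR adjusted p = 0.04423), and it was not called under most alternatives. The dissociation list was higher in 10 of 13 rows in pituicyte wells (median log2 fold change 1.28, against 0.23 over all genes). It was lower in 8 of 13 in gonadotropin-rich wells (median -1.07, against -0.35), and its part was not tested.

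**Figure D3:**
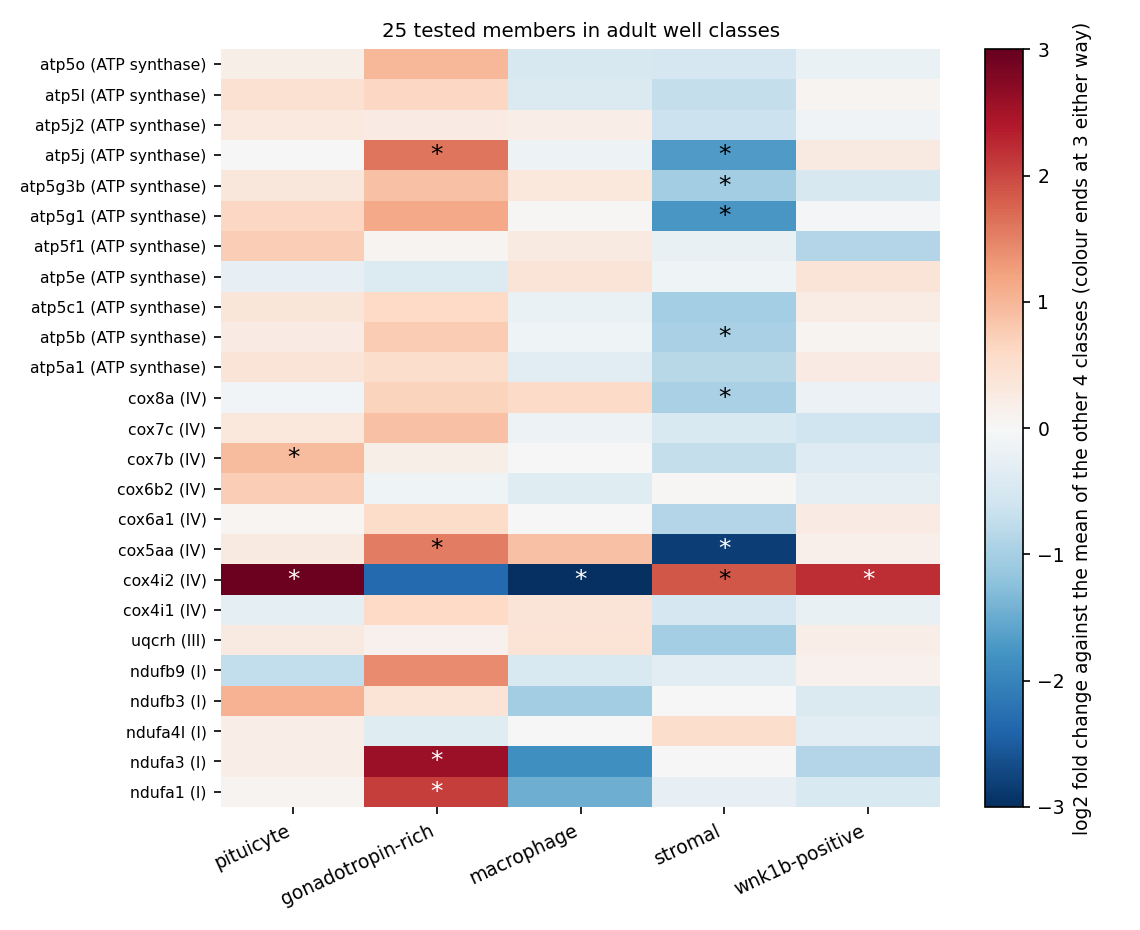
Log2 fold change (colour) of the 25 tested members in each adult well class against the mean of the other 4 classes, with plate as a block; asterisks mark an adjusted p under 0.05. The column of stromal wells is mostly blue for ATP synthase rows, the column of gonadotropin-rich wells mostly red, and cox4i2 changes sign between classes; its colours rest on 0 UMIs in macrophage wells.

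Adult classes also differed in which form of subunit 4 was present. Of the UMIs of cox4i1, cox4i1l and cox4i2, cox4i2 made up 40 of 94 in adult pituicyte wells (42.55%, exact 95% interval 32.41 to 53.18%), 22 of 71 in stromal wells (30.99%) and 18 of 58 in wnk1b-positive wells (31.03%). It was 1 of 82 in gonadotropin-rich wells (1.22%) and 0 of 75 in macrophage wells, where the exact 95% interval reaches up to 4.8%. With UMIs pooled over plates, the intervals of the first 3 classes overlap one another and lie above the other 2. These intervals cover counting error only. By plate, pituicyte wells had 9 of 23, 5 of 22, 16 of 28 and 10 of 21. Stromal wells had 2 of 16, 7 of 18, 12 of 34 and 1 of 3, and wnk1b-positive wells 8 of 27, 1 of 5, 7 of 22 and 2 of 4. On single plates the intervals often overlapped. On the first 5-month plate the stromal interval (1.551 to 38.35%) overlapped the gonadotropin-rich interval (0.0429 to 9.086%). The second 5-month plate had a pituicyte interval of 7.821 to 45.37% and a wnk1b-positive interval of 0.5051 to 71.64%. Both overlapped the gonadotropin-rich and macrophage intervals there, which reached up to 16.11% and 13.23%. At 7 months the macrophage intervals reached up to 40.96% and 70.76% and overlapped all of the first 3 classes. At 37 dpf the form made up 17 of 41 UMIs in pituicyte-list wells (41.46%), 27 of 138 in stromal wells, 2 of 66 in macrophage wells, 0 of 91 in keratinocyte-list wells, 4 of 216 in erythroid wells and 20 of 1114 in unassigned wells. Over whole plates the share was 4.407% and 3.785% at 37 dpf, 11.17% and 14.56% at 5 months, then 40.37% and 40.54% at 7 months.

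The edgeR fit called cox4i2 higher in pituicyte, stromal and wnk1b-positive wells (in the last, 17.8% of all genes were called higher) and lower in macrophage wells (17.1% were called lower), where it was the member called in each of the latter 2 classes. These fitted values are set by the 0 UMIs of the macrophage sums and are no measure of size. With macrophage wells left out, an alternative chosen after the data were seen, cox4i2 was still called higher in pituicyte wells (log2 fold change 1.79), and not in stromal (0.74) or wnk1b-positive wells (1.15).

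**Figure D4:**
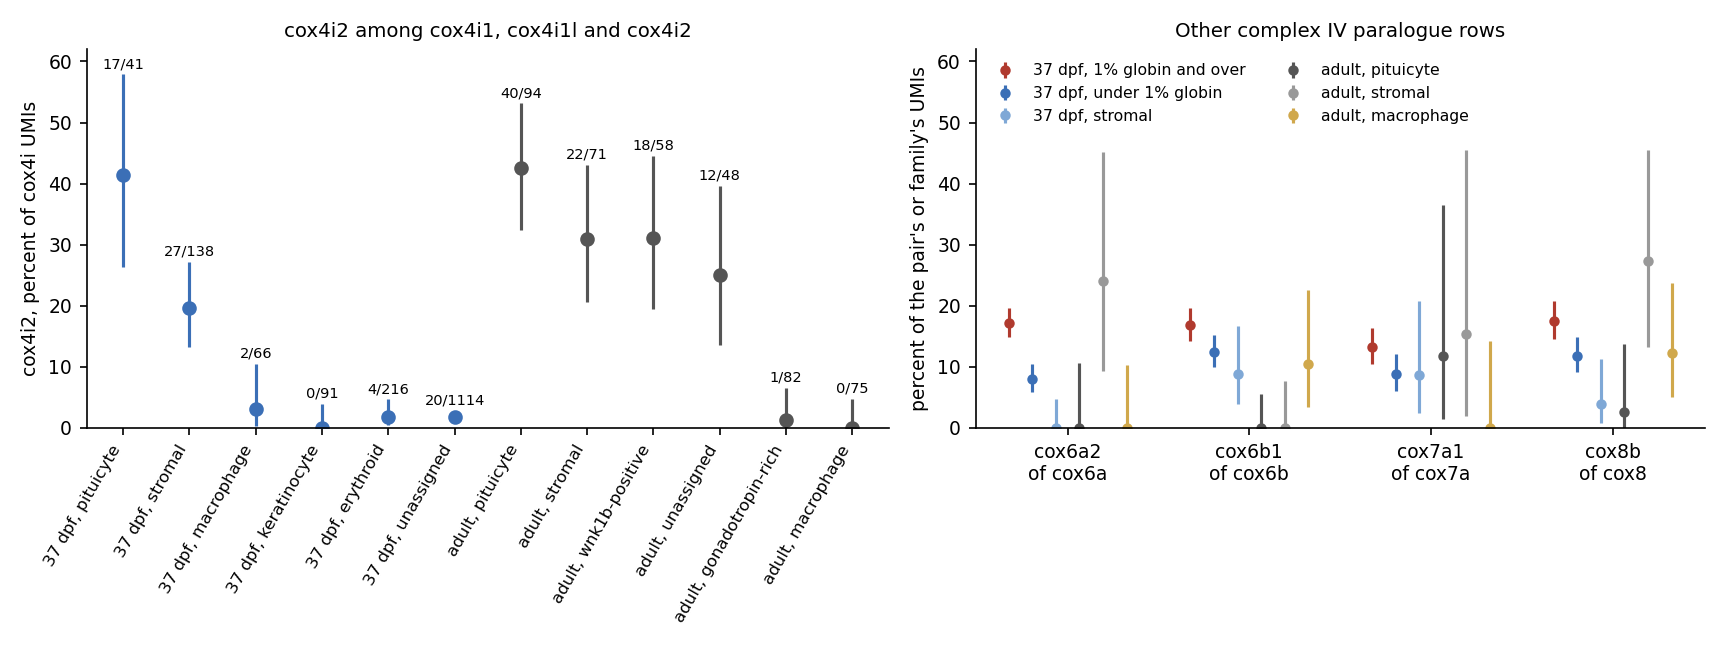
Share of a paralogue in the UMIs of its pair or family (vertical axis, percent, with 95% exact binomial intervals that cover counting error only): left, cox4i2 by well class with its UMIs over those of the family; right, cox6a2, cox6b1, cox7a1 and cox8b in wells at 37 dpf by globin share and in 4 classes of 37 dpf or adult wells. Adult pituicyte wells stand at 42.55% for cox4i2 and macrophage wells at 0, while cox6a2 is at 17.16% in 37 dpf wells of at least 1% globin and at 0 in adult pituicyte wells.

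Other complex IV paralogue rows were distributed otherwise. At 37 dpf cox6a2 made up 175 of 1020 cox6a UMIs in wells of at least 1% globin (17.16%), 47 of 586 in the other wells (8.02%) and 0 of 76 in stromal wells. In adults it was 6 of 25 in stromal wells (24%) and 0 of 33 in pituicyte wells, 0 of 33 in gonadotropin-rich wells and 0 of 34 in macrophage wells. The form cox8b made up 107 of 610 cox8 UMIs (17.54%) and 61 of 517 (11.8%) in the same groups of 37 dpf wells, 9 of 33 in adult stromal wells and 1 of 38 in adult pituicyte wells. For cox6b1 the counts were 133 of 790 and 82 of 661 at 37 dpf, 5 of 48 in adult macrophage wells and 0 of 65 in adult pituicyte wells. Of the pair cox5aa and cox5ab, cox5ab held between 23.23% and 37.5% on every plate, with overlapping intervals. By adult class it held 7 of 10 UMIs in stromal wells (70%) and 4 of 36 in macrophage wells (11.11%). In 3 wells at 37 dpf at least 10% of UMIs came from a list of 12 muscle genes. There cox6a2 and cox6b1 had 0 UMIs, cox8b had 1, cox7a1 had 6 and cox5b2 had 8. These few wells do not show where the UMIs of these rows on the plates come from.

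Erythroid wells, defined by at least 10% globin UMIs, are blood cells, and zebrafish red cells keep their nuclei and mitochondria. Against the mean of macrophage, stromal and all remaining 37 dpf wells, 30 of 72 tested members were higher and 0 lower, where 19.8% of all genes tested were called higher. The median was 0.64 against -0.25 over all genes. The calls fell on 11 of 16 ATP synthase rows, 9 of 15 complex IV rows, 9 of 34 complex I rows and 1 of 7 complex III rows. The c-subunit gene atp5g3b had 1507 and 1423 CPM in erythroid wells, 657 and 583 in macrophage wells, 461 and 579 in stromal wells and 1471 and 1419 in the remaining wells, a log2 fold change of 0.92 ± 0.14 (edgeR adjusted p = 1.667e-09). For this gene the sum of the remaining wells was thus at the erythroid level, and the difference lay against macrophage and stromal wells. That sum includes the unassigned wells with 1 to 10% globin. Without TMM and pooled over plates, atp5g3b had 700.8 CPM in keratinocyte-list and 712.5 in pituicyte-list wells, against 1258 in erythroid wells.

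In complex I the core subunit genes ndufs3 and ndufs7 were higher by 1.38 and 1.29 on the log2 scale, and ndufs3 had 242 and 144 CPM in erythroid wells against 57.1 and 41.6 in macrophage, 43.9 and 75.9 in stromal and 138 and 116 in the remaining wells. For cox6a2 the values were 150 and 198 CPM, against 0 and 20.8, 0 and 0, and 132 and 119. The subunit 4 gene cox4i1 was not called (0.14 ± 0.17). Of 10 tested mt- rows, 8 were lower in erythroid wells, as were 8 of 10 glycolysis rows and 12 of 12 rows of the dissociation list. Their median log2 fold changes were -0.37, -1.75 and -4.43, against -0.25 over all genes, so the mt- median lay near that of all genes. The share of all genes called lower in this fit is not given here, so these counts stand without a baseline. DESeq2 called 17 members. With erythroid wells taken from 1% globin, an alternative chosen after the data were seen, 70 of 77 were higher and 1 lower, where 33% of all genes tested were called higher and the median of all genes was 0.18. Erythroid wells had a median of 4568 and 6700 UMIs per plate, and stromal wells 911.5 and 1076.

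The number of member UMIs per mt- UMI also differed by class. It was 0.5379 in erythroid and 0.5279 in unassigned 37 dpf wells, 0.3212 in pituicyte-list, 0.2639 in stromal and 0.1882 in macrophage wells at 37 dpf (means of 2 plates). In adults it was 0.3204 in gonadotropin-rich, 0.2666 in pituicyte, 0.2268 in wnk1b-positive, 0.215 in stromal, 0.1946 in macrophage and 0.08367 in unassigned wells. Macrophage plates had ratios of 0.1853 and 0.1911 at 37 dpf and 0.1983 and 0.1909 at 5 months, which overlap, although the member share and the mt- share were both lower at 5 months. Pituicyte plates had 0.2343 and 0.2665 at 5 months and 0.2492 and 0.3166 at 7 months, below the 0.3194 and 0.3229 of pituicyte-list wells at 37 dpf. Unassigned adult wells, led by gh1 and neuronal genes, had 45.6% of their UMIs in the AC024175 rows.

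**Figure D5:**
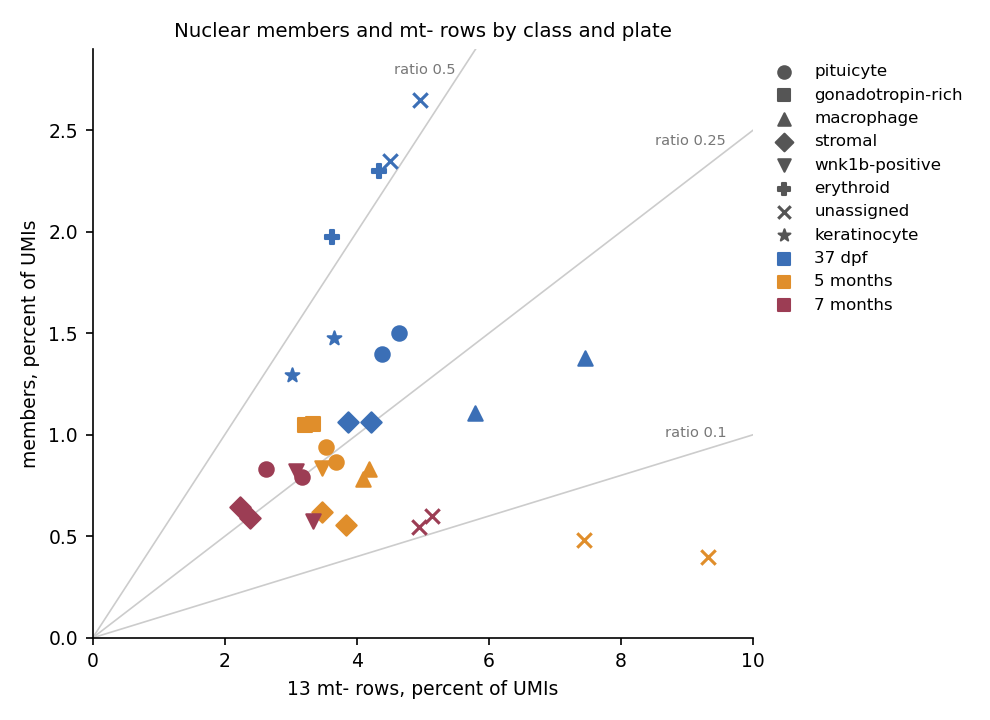
Summed members against the 13 mt- rows, both as percent of UMIs, for each well class (symbol) and plate (colour marks the age); grey lines are constant ratios. Erythroid and unassigned 37 dpf wells lie near or above a ratio of 0.5, macrophage wells near 0.19 at both ages, and unassigned adult wells near or below 0.1.

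Across single wells of a class, member share and mt- share were related in erythroid wells, with Pearson coefficients of 0.7162 (n = 25 wells) and 0.7041 (n = 27) on the 2 plates. In stromal wells the coefficients lay between -0.08323 (n = 95) and 0.04303 (n = 82) on the 5 plates for which they were computed. In adult pituicyte wells they were -0.6088, -0.5853, -0.3953 and -0.1222 (n = 36, 32, 52 and 37 wells). Macrophage wells had -0.45 to -0.1957, wnk1b-positive wells -0.3078 and -0.2214, and gonadotropin-rich wells 0.2123. Pituicyte-list wells had -0.2764 and 0.05485, keratinocyte-list wells 0.4046 and -0.3326, and unassigned wells -0.6126 to 0.209. Median UMIs were 4568 and 6700 in erythroid, 911.5 to 1156.5 in stromal and 694 to 1371.5 in adult pituicyte wells. The part of depth in the coefficients was not tested. The AC024175, mt-, globin and gonadotropin rows were then taken out of the denominator of both the member share and the mt- share. With this denominator the pituicyte values were -0.04671, -0.2571, 0.01397 and -0.2097 and the erythroid values 0.5484 and 0.4862. The stromal values were then 0.3193 and 0.3186 on the 5-month plates and between -0.04731 and 0.005896 on the others. The wells of a plate share 1 library and both shares share a denominator, and mt- and AC024175 shares were correlated with each other in adult pituicyte wells (0.5266 to 0.8499), so these are descriptions without a test.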

How the data were processed

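Each plate's deposited table gives raw UMI counts per gene and well, not normalized by the authors. Per the submitters' processing notes, bcl2fastq 2.15.0.4, Seurat 3.1.5 and danRer10 were used, in roles not given in the sources used here, as is the aligner. The members and all lists were chosen with earlier results of these data known.

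Counts were summed over wells of at least 400 UMIs, per plate (wells under 10% globin) or per plate and class (at least 10 wells), and compared by the quasi-likelihood test of edgeR 4.0.16 in R 4.3.3, after TMM scaling and filterByExpr. P-values were adjusted over all genes by the Benjamini-Hochberg method and called at 0.05. Age fits used all 6 plates; class fits had plate as a block. SEs were derived from the log2 fold change and the F statistic. DESeq2 1.42.0 was an alternative. The fits were tested on simulated data. Classes followed marker lists: at least 3 list genes and 0.5% of UMIs, 10% globin (erythroid), 5% gonadotropin or 2 wnk1b UMIs. The growth factor rows hbegfa and hbegfb, which a globin name pattern also matched, were left out of the globins. Named genes were the 4 most abundant rows per complex, up to 5 called each way by size of change, and the paralogue rows; a few more were chosen after their values were seen. Shares have exact (Clopper-Pearson) 95% intervals, and a count of 0 allows up to 3 counts. One gene that this rule names is not reported here.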

Additional observations from a re-analysis of the deposited data

How the results depend on the processing

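Counts of called members kept to within 1.5 times the main count, except as follows. For 7 against 5 months, no filter on low counts gave 0, and the split of all genes moved from 50 higher and 60 lower to 90 and 45 without TMM. At 5 months against 37 dpf, leaving out wells of at least 1% globin gave 28. In pituicyte wells the count was 1 without TMM, with DESeq2, with no filter, with a minimum of 200 UMIs, in sums of at least 20 wells, with looser classes, without macrophage wells and without AC024175 and mt- rows, and 0 with a minimum of 1000 UMIs. In gonadotropin-rich wells it was 1 with stricter classes and 7 without AC024175 and mt- rows. In macrophage wells it was 0 with no filter or a minimum of 1000 UMIs and 2 in sums of at least 5 wells. In stromal wells it was 3 with DESeq2 or stricter classes, 1 with no filter, and 4 with a minimum of 1000 UMIs, in sums of at least 20 wells, with looser classes and without macrophage wells. In wnk1b-positive wells it was 0 with DESeq2, no filter, a minimum of 1000 UMIs, stricter classes and without macrophage wells. In erythroid wells it was 17 with DESeq2 and 71 from 1% globin. In stromal wells at 5 months against 37 dpf (2) it was 4 without TMM, 0 with DESeq2 or no filter, and 1 with minimums of 1000 or 200 UMIs, sums of at least 20 wells, stricter or looser classes, erythroid wells from 1% globin and without AC024175 and mt- rows. At 7 months (1) it was 2 without TMM and 0 with DESeq2, the same minimums, sums of 20 wells, both class rules and without AC024175 and mt- rows. The cause of these differences was not tested.

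The member share at 37 dpf, 5 and 7 months was 2.576%, 1.233% and 0.9856% with the other denominator, and 1.597%, 0.5646% and 0.6615% as a mean over wells, which turned the order of the adult ages. A minimum of 1000 UMIs gave 0.8449% at 5 and 0.7437% at 7 months, a minimum of 200 gave 0.6487% at 7 months, and leaving out wells of at least 1% globin gave 1.73% at 37 dpf. The ratio to mt- UMIs at 37 dpf was 0.472 and 0.4443 with minimums of 1000 and 200 UMIs, 0.4506 with mt- shares up to 30%, 0.4604 with all wells and 0.3826 without wells of at least 1% globin. It was 0.2063 at 5 months and 0.2317 at 7 months with a minimum of 1000 UMIs, and 0.1771 at 7 months with 200. Class shares with the other denominator were 1.151% in pituicyte, 1.718% in gonadotropin-rich, 1.151% in macrophage, 0.8175% in stromal, 1.032% in wnk1b-positive and 3.018% in erythroid wells. As means over wells they were 1.039% in gonadotropin-rich and 0.7552% in macrophage wells. Stricter and looser classes gave 1.088% and 1.056% in gonadotropin-rich wells, and erythroid wells from 1% globin 2.423%.

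Leaving out 1 plate gave 27 to 64 calls at 5 months against 37 dpf, 48 to 61 at 7 months against 37 dpf and 0 to 1 for 7 against 5 months. By class it gave 0 to 7 in gonadotropin-rich, 0 to 1 in macrophage, 0 to 1 in pituicyte, 1 to 6 in stromal and 0 to 1 in wnk1b-positive wells, and 0 to 0 in pituicyte and stromal wells between adult ages. In stromal wells it gave 0 to 1 at 5 months and 0 to 3 at 7 months against 37 dpf, and in macrophage wells 0 at 5 months. Shares ranged over 1.952 to 2.162% at 37 dpf, 0.724 to 0.7804% at 5 months and 0.6846 to 0.69% at 7 months. Class shares ranged over 1.977 to 2.302% (erythroid), 1.051 to 1.052% (gonadotropin-rich), 0.7825 to 0.8307% (macrophage), 0.8292 to 0.879% (pituicyte), 0.5881 to 0.6175% (stromal) and 0.6997 to 0.8296% (wnk1b-positive). Ratios to mt- UMIs ranged over 0.4488 to 0.4497, 0.14 to 0.174 and 0.1978 to 0.215 by age, and over 0.5304 to 0.5454, 0.3148 to 0.326, 0.1909 to 0.1983, 0.25 to 0.2774, 0.1904 to 0.2385 and 0.2064 to 0.2541 in the same order of classes. No called member turned its direction under the alternatives run. The order of the adult shares above did, and so did the split of all genes into higher and lower for 7 against 5 months without TMM. Stricter classes and leaving out a plate could not be fitted for erythroid wells.

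No paired analysis was possible because the replicate numbers of the plates follow accession order and tie no plates of different ages. In the class fits, which had plate as a block, dropping it (no replicate block) gave 2 called members in pituicyte, 6 in gonadotropin-rich, 1 in macrophage, 6 in stromal, 1 in wnk1b-positive and 22 in erythroid wells. In sums by class, 25 of 89 members passed the filter on low counts among adult classes.
The alternatives of 1% globin, of macrophage wells left out and of AC024175 and mt- rows left out of the class fits, and the fits of stromal and macrophage wells against 37 dpf were chosen after seeing the data.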
